A study of Mus musculus with 9 samples.

Results

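The early B lineage genes described here are Vpreb1, Vpreb3, Igll1, Ebf1, Pax5, Cd79a, Cd79b, Rag1 and Rag2, 9 of the 29229 genes in a table of read counts from mouse splenic T cells. They were chosen by name, and each was found by matching its Ensembl identifier to its symbol. The libraries were RNA sequencing of live CD3+ CD45.2+ cells sorted from the spleen after a pan-T-cell enrichment. The naive group came from healthy C57BL/6 mice without a transplant. The syngeneic group held donor cells from B6.SJL-Ptprca Pepcb/BoyJ recipients (H-2b, CD45.1) given 9.5 Gy and 8500000 C57BL/6 splenic T cells. The allogeneic group held donor cells from CByJ.SJL(B6)-Ptprca/J recipients (H-2d, CD45.1) given 8 Gy in split doses and 1000000 such T cells. Recipients of both kinds were also given 5000000 C57BL/6 marrow cells freed of T cells, and were sampled at day 7. Cells descended from that marrow carry CD45.2, as the donor T cells do. Donor and recipient mice were females of 8 to 12 weeks. Each group had 3 libraries, and those of the transplant groups pooled 2 to 4 recipients each. Whether the naive libraries were pools or separate mice is not stated, and p-values measure the spread between these libraries. The transplant groups therefore differed in recipient strain, irradiation and T-cell dose together, and these cannot be told apart. One strain label, that of the syngeneic recipients, stands on all 9 libraries, against the protocols and the naive titles, and it was not used.

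B cells arise in the bone marrow. Ebf1 and Pax5 encode the transcription factors that specify and then commit the lineage, and Rag1 and Rag2 encode the recombinase that joins immunoglobulin and T-cell receptor gene segments. Vpreb1 and Igll1 encode the surrogate light chain, which pairs with the new heavy chain in the pre-B-cell receptor and is shut off afterwards. Cd79a and Cd79b encode the signalling chains Ig-alpha and Ig-beta that stay with the receptor through the mature stage. Surrogate light chain and recombinase genes are therefore progenitor genes, while genes such as Ms4a1 (CD20) and Fcer2a (CD23) mark later stages. Most B cells of a healthy spleen are past the progenitor stage, and a CD3 sort is meant to leave B cells out.

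Promoters of 4 members are shown because these genes stand for the stages compared below: the surrogate light chain pair, the recombinase and the receptor signalling chain. The sequences are RefSeq's for GRCm38.p6, 250 bases before to 50 bases after the RefSeq start, read 5′ to 3′ along the gene. RefSeq starts can differ from those of GENCODE, which gave the gene positions below. The Vpreb1 window lies within the GENCODE span of that gene, 16868403 to 16870843. The GENCODE start of Cd79a, 24897381, lies before the RefSeq start used for its window. Capitals mark the E-protein letters CAGNTG on either strand (CANCTG on the other) and an EBF1-like palindrome, TCCC and GGGA parted by 3 bases.
Igll1 promoter, chr16:16863936-16864235, strand minus: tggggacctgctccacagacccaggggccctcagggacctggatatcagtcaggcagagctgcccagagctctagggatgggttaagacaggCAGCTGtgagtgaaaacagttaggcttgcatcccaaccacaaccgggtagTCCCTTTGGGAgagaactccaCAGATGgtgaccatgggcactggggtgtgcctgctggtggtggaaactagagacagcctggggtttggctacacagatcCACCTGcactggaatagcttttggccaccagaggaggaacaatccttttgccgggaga
Vpreb1 promoter, chr16:16869206-16869505, strand minus: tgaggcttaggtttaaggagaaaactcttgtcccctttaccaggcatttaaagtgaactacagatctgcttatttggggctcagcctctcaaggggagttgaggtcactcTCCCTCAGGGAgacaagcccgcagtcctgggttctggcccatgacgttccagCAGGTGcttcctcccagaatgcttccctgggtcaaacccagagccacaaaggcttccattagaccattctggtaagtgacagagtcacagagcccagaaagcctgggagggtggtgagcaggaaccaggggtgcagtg
Rag1 promoter, chr2:101649483-101649782, strand minus: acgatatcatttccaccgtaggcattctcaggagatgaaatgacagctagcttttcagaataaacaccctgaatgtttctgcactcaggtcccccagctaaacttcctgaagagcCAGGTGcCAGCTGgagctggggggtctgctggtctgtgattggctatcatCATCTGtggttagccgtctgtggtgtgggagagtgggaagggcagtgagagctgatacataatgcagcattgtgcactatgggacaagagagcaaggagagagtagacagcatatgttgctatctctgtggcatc
Cd79a promoter, chr7:24897247-24897546, strand plus: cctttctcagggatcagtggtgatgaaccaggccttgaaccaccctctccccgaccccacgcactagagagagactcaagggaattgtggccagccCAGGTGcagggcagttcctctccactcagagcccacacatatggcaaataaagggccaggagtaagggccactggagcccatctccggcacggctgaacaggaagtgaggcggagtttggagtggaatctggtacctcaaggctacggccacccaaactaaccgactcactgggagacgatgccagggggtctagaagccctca
The E-protein letters occur 3 times in the Igll1 window, 3 times in the Rag1 window and once each in the Vpreb1 and Cd79a windows. They are common, being present in 51.4% of 32851 promoter windows of this length. The EBF1 palindrome itself, TCCC and GGGA parted by 2 bases, is present in 0.904% of windows and matched no member. The version with 3 bases between was added after these sequences were read, matched Igll1 and Vpreb1 and is present in 0.831% of windows, so that its match describes the choice of letters. Of the 9 members, 8 had a promoter in the table, and Cd79b was not in it.

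T-cell markers were high in all 9 libraries, and the transplant libraries also held RNA of erythroid, myeloid and hematopoietic progenitor marker genes. Total counts were 103953932 to 176678189 per library. The summed level of 10 T-cell markers was 5057 ± 277 counts per 1000000 of the column total (CPM, mean ± SD, n = 3 in every group) in naive, 4220 ± 480 CPM in the syngeneic and 5377 ± 238 CPM in the allogeneic libraries. The 13 erythroid markers measured summed to 12.4 to 13.7 CPM in the naive, 2349 to 6203 CPM in the syngeneic and 30.1 to 99.0 CPM in the allogeneic libraries. The 9 neutrophil markers summed to 3.32 to 5.54, 402 to 1278 and 593 to 1160 CPM, the 10 macrophage markers to 3.56 to 4.62, 51.6 to 204 and 48.4 to 86.1 CPM, and the 6 hematopoietic progenitor markers to 8.97 to 14.6, 83.3 to 343 and 70.6 to 276 CPM, in the same order of groups. Of the T-cell markers 6 were lower and 1 higher in syngeneic than in naive libraries, beside 19.5% and 22.4% of all genes tested. In allogeneic against naive libraries none was lower and 1 higher (25.9% and 31.8% of all genes). In allogeneic against syngeneic libraries 1 was lower and 7 higher (20.7% and 24.3% of all genes). Syngeneic library 1 had the lowest syngeneic sum in all 4 lists of other cells, and it also had the lowest syngeneic level of 8 of the 9 early B genes, all but Cd79b. The part of these other cells in the results was not tested. In bulk RNA, fewer cells of a type and less RNA per cell cannot be told apart.

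**Figure D1:**
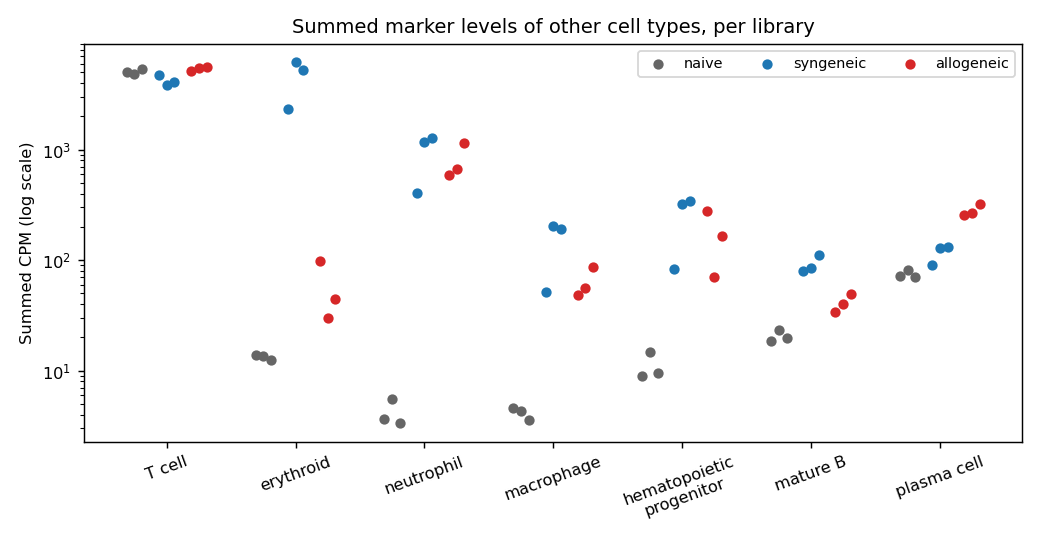
Summed CPM of marker lists per library on a log axis, with naive, syngeneic and allogeneic libraries as separate points. Erythroid markers stand at 2349 to 6203 CPM in the syngeneic and at 30.1 to 99.0 CPM in the allogeneic libraries, while the group means of the T-cell markers are 4220 to 5377 CPM.

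Against naive libraries, the syngeneic libraries had more RNA of most early B lineage genes. Ebf1, Pax5 and Cd79a were also called higher in allogeneic than in naive libraries, calls lost for Ebf1 and Cd79a in some alternatives. Among the members that passed the filter on low counts, none was called lower there. The allogeneic libraries had no Rag1 count and 1 Igll1 count, where the naive libraries had 2 and 5. Rag1, Ebf1, Pax5 and Cd79a rose in syngeneic libraries, by 4.27-fold for Cd79a to 11.3-fold for Pax5 and more for Rag1. Igll1 and Vpreb3, which are too low for the filter on low counts, also passed in a fit without that filter. Against syngeneic libraries, Rag1, Ebf1 and Cd79a were lower in allogeneic libraries, and so were Igll1 and Vpreb3 without the filter. Vpreb1, Igll1, Rag1 and Rag2 stayed below 1 CPM in each library, and Cd79b stood at 10.2 to 10.8 CPM in the group means.

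Changes were tested with edgeR's quasi-likelihood test in 1 model of the 9 libraries, with Benjamini-Hochberg adjustment over all 19609 genes tested and calls at an adjusted p under 0.05. The filter kept 7 of the 9 members. Rag1 passed it through its syngeneic libraries alone, Ebf1 through its transplant libraries alone and Pax5 largely through its transplant libraries. For these genes the direction against naive libraries was partly fixed by the filter. For Rag1 the same holds for allogeneic against syngeneic libraries. The counts, non-overlaps and medians that follow include these genes. In syngeneic against naive libraries 4 of the 7 were higher and none lower, where 41.9% of all genes were called, 22.4% higher and 19.5% lower. In allogeneic against naive libraries 3 of 7 were higher and none lower (57.7% of all genes called, 31.8% higher and 25.9% lower), and in allogeneic against syngeneic libraries 3 of 7 were lower and none higher (45% called, 24.3% higher and 20.7% lower). Libraries of the groups did not overlap for 4 of the 7 in the first comparison, all higher (25.4% of all genes higher, 31.1% lower), for 3 in the second, all higher (32.5% and 32.6%), and for 5 in the third, all lower (27.4% and 25.3%). The median log2 fold change of the 7 was 2.31, 0.14 and -1.20 in these comparisons, and that of all genes 0.01, -0.01 and -0.02. Without the filter the counts were 6, 3 and 5 of 9 members, beside 28.1%, 39.8% and 30.2% of 28688 genes. The 3 comparisons share their groups, so that they are not independent of each other.

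**Figure D2:**
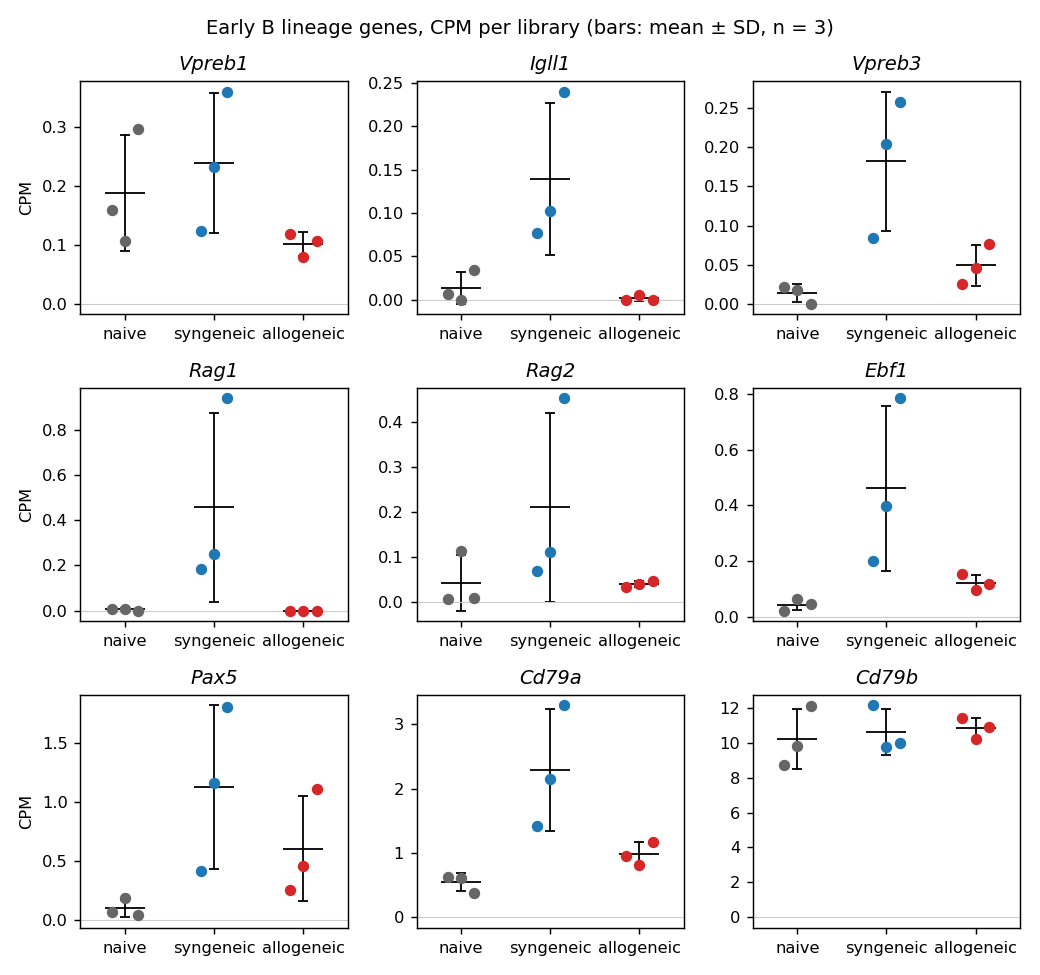
CPM of each of the 9 genes in the 3 libraries of each group, on linear axes that differ between panels, with bars for mean ± SD. Rag1 and Igll1 are at or near 0 in the naive and allogeneic libraries and above 0.05 CPM in each syngeneic library, and Cd79b is level across the groups.

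The surrogate light chain genes lie close together on chromosome 16, and edgeR called Igll1 but not Vpreb1. Igll1 (ENSMUSG00000075370, GRCm38 chromosome 16, 16860671 to 16863985, minus strand), which encodes lambda5, had 1, 0 and 4 counts in naive libraries 1 to 3, 10, 11 and 26 in the syngeneic and 0, 1 and 0 in the allogeneic libraries. In CPM these are at most 0.0349 in the naive, 0.0767, 0.102 and 0.240 in the syngeneic and at most 0.00566 in the allogeneic libraries. Every syngeneic library was above every other library. Summed over the groups, 47 syngeneic counts against 1 allogeneic count give a ratio of 54.1, with an exact 95% counting interval of 9.24 to 2180 that covers counting error only. In the edgeR fit without the filter, its log2 fold change was 3.23 ± 0.94 (SE) in syngeneic against naive (adjusted p = 0.0146) and -5.32 ± 1.15 in the allogeneic against syngeneic libraries (adjusted p = 0.00188). The rise against naive was not called without naive library 1 (2.90, edgeR adjusted p = 0.0675) or without syngeneic library 3 (2.63, 0.125), and was 4.84 without naive library 3. The fall in allogeneic libraries was called whichever library was left out, with edgeR adjusted p of 0.00102 to 0.0177. It was -4.73 without syngeneic library 3 and -7.01 without allogeneic library 2, which held the 1 count.

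Vpreb1 (ENSMUSG00000059305, chromosome 16, 16868403 to 16870843, minus strand) encodes the variable-like part of the same surrogate light chain. It had 22, 12 and 34 counts in naive, 16, 25 and 39 in the syngeneic and 14, 14 and 11 in the allogeneic libraries, or 0.187 ± 0.0984, 0.238 ± 0.119 and 0.101 ± 0.0201 CPM. Naive and syngeneic libraries overlapped, and the highest allogeneic library (0.119 CPM) stood just under the lowest syngeneic one (0.123 CPM). No comparison was called by edgeR: the log2 fold change was 0.35 ± 0.49 for syngeneic against naive (adjusted p = 0.608), -0.84 ± 0.52 for allogeneic against naive (0.183) and -1.20 ± 0.51 for allogeneic against syngeneic libraries (0.0786). The last was called without syngeneic library 1 (-1.49, edgeR adjusted p = 0.037). The annotated 5′ end of Vpreb1 overlaps Top3b, a topoisomerase gene on the opposite strand that stood at 57.8 ± 0.538, 49.1 ± 2.99 and 49.6 ± 8.44 CPM, and the sources used here do not give the strand setting of the counting. The part of Top3b reads in the Vpreb1 counts was not tested. Vpreb2, the near-identical copy that can share reads with Vpreb1, is not analysed here.

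Vpreb3 (ENSMUSG00000000903, chromosome 10, 75943057 to 75949657, plus strand), a relative of Vpreb1 that is found with heavy chains in the endoplasmic reticulum, had 3, 2 and 0 counts in naive, 11, 22 and 28 in the syngeneic and 3, 8 and 8 in the allogeneic libraries. The 3 groups did not overlap in CPM, with naive lowest (at most 0.0217), allogeneic between (0.0254 to 0.0770) and syngeneic highest (0.0844 to 0.258). In the fit without the filter its log2 fold change was 3.65 ± 0.79 in the syngeneic against naive libraries (edgeR adjusted p = 0.0018), a call made whichever library was left out. It was -1.85 ± 0.67 in the allogeneic against syngeneic libraries (edgeR adjusted p = 0.0452). That call was lost without naive library 1 (edgeR adjusted p = 0.0507), syngeneic library 2 (0.118) or 3 (0.195), or allogeneic library 1 (0.128) or 2 (0.124). Against naive libraries the allogeneic value was 1.80 ± 0.85 (edgeR adjusted p = 0.108).

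Of the recombinase pair, Rag1 was called and Rag2 was not. Rag1 (ENSMUSG00000061311, chromosome 2, 101638282 to 101649501, minus strand), the subunit that carries the DNA-cutting activity, had 1, 1 and 0 counts in naive, 24, 27 and 102 in the syngeneic and no count in any allogeneic library. The syngeneic libraries stood at 0.184, 0.250 and 0.941 CPM, each above all others, and library 3 held 102 of the 153 counts. In group sums, Rag1 was at least 58.7-fold lower in allogeneic than in syngeneic libraries. The floor for this was 3 counts over the group (0.00753 CPM in the allogeneic libraries). The bound uses the pooled syngeneic counts, and syngeneic libraries 1 and 2 alone would give a lower one. Against the 2 naive counts the ratio was 80.9, with a counting interval of 22.01 to 674. Without the filter, edgeR called both differences (adjusted p = 9.41e-05 against naive and 3.71e-05 for allogeneic against syngeneic libraries). With the filter, which Rag1 passed only where it was high, the fitted log2 fold change against naive libraries was 6.16 ± 0.98, and 5.13 without syngeneic library 3. The fitted value of allogeneic against syngeneic libraries rests on a group without counts and is no bound; it was -8.81 ± 1.27, and -7.79 without syngeneic library 3. Rag1 lies within B230118H07Rik, a gene on the same strand that stood at 0.269 ± 0.0342, 0.472 ± 0.183 and 0.142 ± 0.0836 CPM in the naive, syngeneic and allogeneic libraries.

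Rag2 (ENSMUSG00000032864, chromosome 2, 101624718 to 101632529, plus strand), the partner subunit that binds modified chromatin, had 1, 13 and 1 counts in naive, 9, 12 and 49 in the syngeneic and 4, 7 and 5 in the allogeneic libraries. Naive library 2, at 0.115 CPM, stood at the level of syngeneic library 2, at 0.111 CPM. All syngeneic libraries were above all allogeneic ones (0.0339 to 0.0481 CPM). edgeR called neither syngeneic against naive (log2 fold change 2.31 ± 0.91, adjusted p = 0.0605) nor allogeneic against syngeneic libraries (-2.32 ± 0.90, 0.0561). Both were called without naive library 2 (4.55, edgeR adjusted p = 0.00778, and -2.31, 0.0253) and without syngeneic library 1 (2.72, 0.0282, and -2.72, 0.0267). limma-voom called the syngeneic difference (adjusted p = 0.0423). Without syngeneic library 3 the values were 1.13 and -1.13. Rag1 had no allogeneic count in 3 libraries while Rag2 had 16, and the B230118H07Rik transcript spans Rag2 on the opposite strand. Its part in the Rag2 counts was not tested.

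The 2 lineage transcription factors were called higher in both transplant groups than in naive libraries, with the allogeneic call of Ebf1 lost in several alternatives. Ebf1 passed the filter through its transplant libraries alone and Pax5 largely so. The direction of both genes against naive libraries was therefore partly fixed by the filter. Ebf1 (ENSMUSG00000057098, chromosome 11, 44617317 to 45008091, plus strand) stood at 0.0217, 0.0617 and 0.0436 CPM in the naive, 0.200, 0.399 and 0.784 CPM in the syngeneic and 0.153, 0.0962 and 0.115 CPM in the allogeneic libraries, so that no 2 groups overlapped. Its log2 fold change was 3.45 ± 0.58 in the syngeneic against naive (edgeR adjusted p = 0.000631) and 2.85 without syngeneic library 3, with the call kept. It was -1.88 ± 0.51 in the allogeneic against syngeneic libraries (edgeR adjusted p = 0.0118), and -1.27 with an adjusted p of 0.079 without syngeneic library 3. In allogeneic against naive libraries it was 1.58 ± 0.61 (edgeR adjusted p = 0.0441). That call was lost without any 1 of naive libraries 1, 2 and 3 (edgeR adjusted p = 0.147, 0.0503 and 0.0812), syngeneic library 2 (0.0585) or allogeneic libraries 1 and 3 (0.128 and 0.0813), with column totals as the only scaling (0.0582), and in limma-voom (0.0931).

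Pax5 (ENSMUSG00000014030, chromosome 4, 44524757 to 44710487, minus strand) stood at 0.0723, 0.185 and 0.0436 CPM in the naive, 0.414, 1.16 and 1.80 CPM in the syngeneic and 0.254, 0.458 and 1.11 CPM in the allogeneic libraries. The transplant groups overlapped each other and lay above naive libraries. Its log2 fold change against naive libraries was 3.50 ± 0.68 in the syngeneic (edgeR adjusted p = 0.00169) and 2.61 ± 0.68 in the allogeneic libraries (0.00635). Both calls were made whichever library was left out. Without naive library 2 they were 4.22 and 3.33, and without allogeneic library 3 the allogeneic value was 1.85 (edgeR adjusted p = 0.0402). The difference between the transplant groups was -0.89 ± 0.59 (edgeR adjusted p = 0.236). Antisense genes lie within both Ebf1 and Pax5, and without the strand setting their reads cannot be told apart from those of the factors.

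Of the receptor signalling chains, Cd79a was called and Cd79b was not. Cd79a (ENSMUSG00000003379, chromosome 7, 24897381 to 24902197, plus strand) stood at 0.629, 0.617 and 0.384 CPM in the naive, 1.42, 2.15 and 3.29 CPM in the syngeneic and 0.958, 0.809 and 1.17 CPM in the allogeneic libraries. No 2 groups overlapped. Its log2 fold change was 2.10 ± 0.32 in the syngeneic against naive (edgeR adjusted p = 0.000321) and -1.20 ± 0.31 in the allogeneic against syngeneic libraries (0.00873), calls made whichever library was left out. In allogeneic against naive libraries it was 0.90 ± 0.32 (edgeR adjusted p = 0.0296). That call was lost without naive library 3 (0.096), allogeneic library 1 (0.0655) or 3 (0.119), with column totals alone (0.0528), with the replicate block (0.0503) and in limma-voom (0.0587).

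Cd79b (ENSMUSG00000040592, chromosome 11, 106311341 to 106314762, minus strand) stood at 8.71, 9.83 and 12.1 CPM in the naive, 12.1, 9.73 and 10.0 CPM in the syngeneic and 11.4, 10.2 and 10.9 CPM in the allogeneic libraries. The groups overlapped, and their log2 fold changes were 0.10 ± 0.17, 0.14 ± 0.17 and 0.04 ± 0.17 (edgeR adjusted p = 0.685, 0.501 and 0.866). Per kilobase of annotated exon, the naive level of Cd79b was 7.14 CPM, against 0.373 CPM for its partner Cd79a. On that scale the naive order of the set was Cd79b, Cd79a, Vpreb1, Vpreb3, Rag2, Pax5, Igll1, Ebf1 and Rag1. In syngeneic libraries it was Cd79b at 7.42, Cd79a at 1.57, Vpreb3 at 0.212, Vpreb1 at 0.199, Pax5 at 0.127, Rag1 at 0.0694, Igll1 at 0.0645, Rag2 at 0.0616 and Ebf1 at 0.0472 CPM per kilobase. From Vpreb3 to Ebf1 the SDs of neighbours are larger than the gaps between them.

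The progenitor genes were then set against genes of later B-cell stages. The sum of Vpreb1, Igll1, Rag1 and Rag2 was 0.181, 0.229 and 0.340 CPM in the naive, 0.453, 0.696 and 1.99 CPM in the syngeneic and 0.153, 0.125 and 0.154 CPM in the allogeneic libraries. The 13 mature B-cell genes summed to 18.6 to 23.5 CPM in the naive, 79.3 to 110.3 CPM in the syngeneic and 33.7 to 49.3 CPM in the allogeneic libraries. The log2 ratio of these sums was -6.40 ± 0.49 in the naive, -6.72 ± 0.85 in the syngeneic and -8.15 ± 0.31 in the allogeneic libraries. Its numerator was made up differently in the groups. Vpreb1 gave a mean of 0.187 of 0.250 CPM in the naive and 0.101 of 0.144 CPM in the allogeneic libraries. In the syngeneic libraries Vpreb1 gave 0.238 and Rag1 0.459 of 1.05 CPM. Cd22, an inhibitory coreceptor of B cells, made up 76.7 to 82.3% of the mature sum in the syngeneic, 24.2 to 31.6% in the naive and 64.3 to 66.2% in the allogeneic libraries. Without Cd22 the ratio was -5.92 ± 0.55, -4.42 ± 0.82 and -6.62 ± 0.31, so that syngeneic libraries had the highest value and no longer the middle one. With Vpreb1 and Igll1 alone over the 13 mature genes it was -6.83 ± 0.96, -8.05 ± 0.56 and -8.63 ± 0.42, with naive libraries highest. In single genes, Igll1 counts were 5.5, 3.99 and 11.4% of Ms4a1 counts in syngeneic libraries, at most 2.44% in the naive and at most 0.457% in the allogeneic ones. Rag1 counts were 13.2, 9.78 and 44.7% of Ms4a1 in the syngeneic libraries, at most 0.503% in the naive and 0 in the allogeneic ones. These ratios are descriptions of chosen genes, without a test.

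Among the mature B-cell genes, syngeneic libraries had 5 of 13 higher than naive and none lower (median log2 fold change 0.34), and 8 were not called, beside 22.4% of all genes higher and 19.5% lower. In allogeneic against naive libraries 4 were higher, 5 lower and 4 not called (median -0.49), beside 31.8% and 25.9% of all genes. The 5 higher in syngeneic libraries were Cd22, Cr2, Siglecg, Spib and Fcrla. Ms4a1, the gene of CD20, was at 1.62 ± 0.170 CPM in the naive and 2.02 ± 0.586 CPM in the syngeneic libraries (edgeR adjusted p = 0.261), and Fcer2a, the low-affinity IgE receptor of mature B cells, at 0.200 ± 0.0597 and 0.163 ± 0.0291 CPM (0.645). Cr2, complement receptor 2, rose from 9 counts in naive to 58 in the syngeneic libraries (log2 fold change 2.77 ± 0.56, edgeR adjusted p = 0.00219), with 1 count in allogeneic libraries. Cd22 rose from 5.81 ± 1.18 to 72.8 ± 13.4 CPM (3.69 ± 0.17, edgeR adjusted p = 4.55e-08).

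In allogeneic against syngeneic libraries, 9 of 13 mature B-cell genes were lower, 1 was higher and 3 were not called (median -1.26), beside 20.7% of all genes lower and 24.3% higher. Spib, a B-cell and dendritic-cell transcription factor, was at 1.89 ± 0.685 CPM in the syngeneic and 0.263 ± 0.0781 CPM in the allogeneic libraries (-2.83 ± 0.38, edgeR adjusted p = 0.000123). Ms4a1 was at 2.02 and 1.12 ± 0.215 CPM (-0.83 ± 0.23, edgeR adjusted p = 0.0133), a call lost without syngeneic library 2 (0.0602). The member that rose was Tnfrsf13c, the BAFF receptor gene, from 1.38 ± 0.220 to 5.70 ± 0.701 CPM (2.05 ± 0.22, edgeR adjusted p = 2.66e-05). Cd72, a B-cell coreceptor gene, stood at 17.3 ± 0.778 CPM in the naive, 22.1 ± 1.01 in the syngeneic and 9.22 ± 4.11 in the allogeneic libraries. Naive libraries held 1.62 CPM of Ms4a1 and 0.543 CPM of Cd79a, and which cells gave the Cd72 reads was not tested. Cd72 was lower in allogeneic than in syngeneic libraries (-1.28 ± 0.22, edgeR adjusted p = 0.00075). Of the 5 pan-B genes, Cd72 among them, 3 were lower in that comparison, none higher and 2, Btk and Blnk, not called. In syngeneic against naive libraries 2 of the 5 were higher and none lower, beside 22.4% and 19.5% of all genes. In allogeneic against naive libraries 1, Btk, was higher and 3 lower, beside 31.8% and 25.9%. Lower values in allogeneic libraries were thus found for progenitor and mature B-cell genes alike, and the difference between the lists was not tested.

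**Figure D3:**
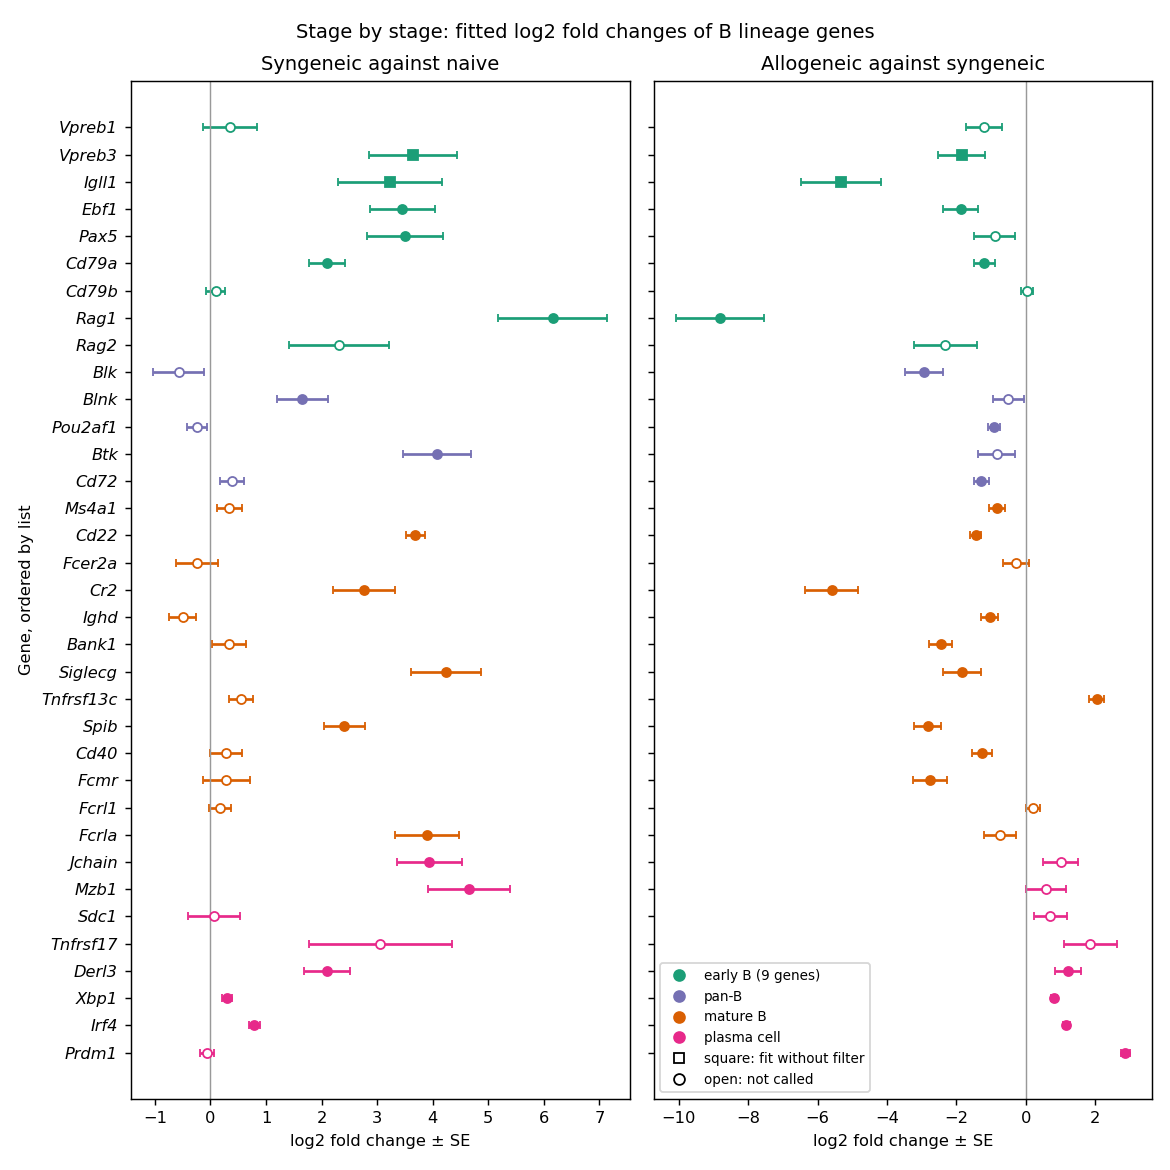
Fitted log2 fold changes ± SE of the 9 early B genes, 5 pan-B, 13 mature B and 8 plasma cell genes in syngeneic against naive and in allogeneic against syngeneic libraries, with open symbols for values not called and squares for the fit without the low-count filter. Early and mature B genes called in the right panel lie below 0 except Tnfrsf13c, and the 4 called plasma cell genes lie above 0.

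Of 8 genes of plasma cells, the antibody-secreting cells, 5 were higher in syngeneic than in naive libraries and 7 in the allogeneic than in naive libraries, with none lower, beside 22.4% and 31.8% of all genes higher. In allogeneic against syngeneic libraries 4 were higher, Derl3, Xbp1, Irf4 and Prdm1, and none lower (median 1.09; 24.3% of all genes higher and 20.7% lower). Xbp1, Irf4 and Prdm1 are also made by activated T cells, and the call of Derl3 was lost without syngeneic library 2 (edgeR adjusted p = 0.0763) or allogeneic library 3 (0.103). Jchain, which links polymeric antibodies, stood at 0.716 to 2.31 CPM in the naive, 5.48, 28.8 and 28.9 CPM in the syngeneic and 44.5, 28.9 and 49.5 CPM in the allogeneic libraries. Both transplant groups were above naive (3.94 ± 0.58 and 4.96 ± 0.60, edgeR adjusted p = 0.000251 and 3.18e-05), and the transplant groups were not called apart (1.01 ± 0.50, 0.121).

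Of 12 immunoglobulin constant genes 5 were higher and 1, Ighd, lower in allogeneic against syngeneic libraries (median 0.93; 24.3% of all genes higher and 20.7% lower). The higher ones were Ighm, Ighg1, Ighg2c, Ighe and Igkc. Ighm already stood at 461 ± 15.9 CPM in the naive libraries, where Igkc stood at 7.00 ± 3.66 CPM. Which cells gave the Ighm reads was not tested. The call of Ighm was lost without allogeneic library 3 (edgeR adjusted p = 0.0521), that of Ighg1 without syngeneic library 2 (0.0887), allogeneic library 1 (0.0956) or 3 (0.0605) and that of Ighe without syngeneic library 3 (0.0749) or allogeneic library 1 (0.0922). Ighd, the delta chain gene of naive B cells, stood at 5.24 ± 0.298 CPM in the naive, 3.61 ± 0.308 CPM in the syngeneic and 1.76 ± 0.801 CPM in the allogeneic libraries (-1.04 ± 0.24 between the transplant groups, edgeR adjusted p = 0.00486). Ighg2c, a switched heavy chain gene, stood at 0.622, 5.73 and 7.58 CPM in the syngeneic and at 122, 14.6 and 39.1 CPM in the allogeneic libraries (3.78 ± 0.93, edgeR adjusted p = 0.00661), and the value was 2.52 without allogeneic library 1 (0.036). Igkc, the kappa light chain, stood at 42.0, 197 and 224 CPM in the syngeneic and 424, 277 and 487 CPM in the allogeneic libraries (1.41 ± 0.49, edgeR adjusted p = 0.0356). That call was lost without syngeneic library 2 (0.0526), allogeneic library 1 (0.0879) or 3 (0.107), and with column totals alone (0.0556). Summed Ighv segments stood at 1.63 to 3.15 CPM in the naive, 14.1 to 79.8 CPM in the syngeneic and 81.6 to 142.5 CPM in the allogeneic libraries.

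**Figure D4:**
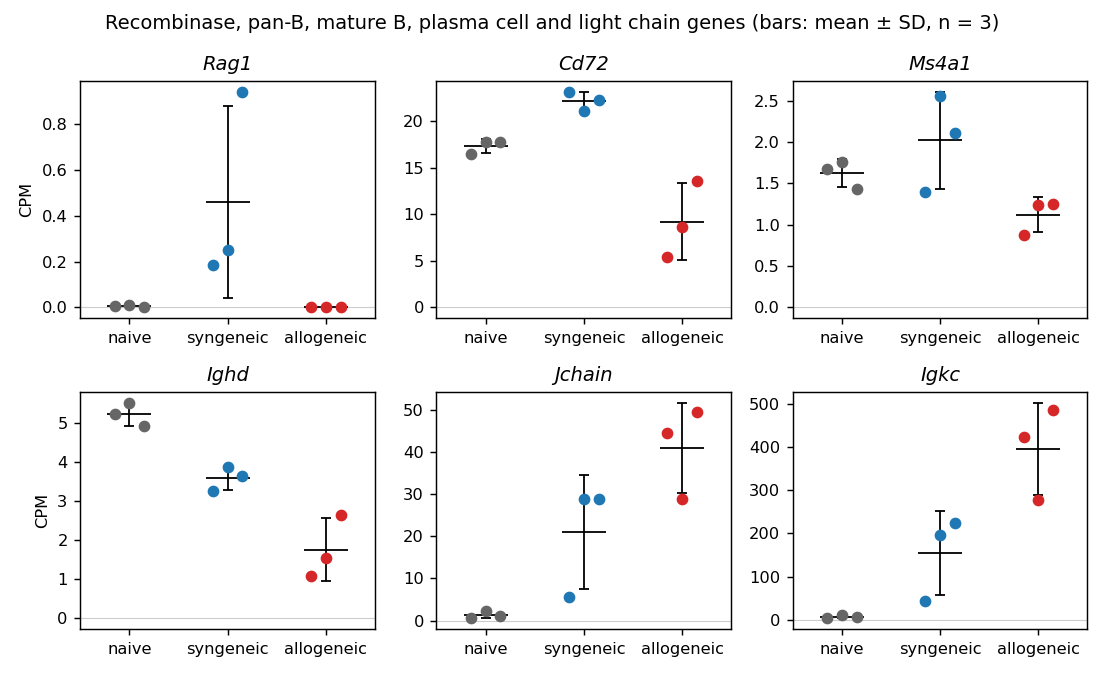
CPM per library of Rag1 (recombinase), Cd72 (pan-B), Ms4a1 and Ighd (mature B), and Jchain (plasma cells) and Igkc (kappa light chain), on linear axes with bars for mean ± SD. Rag1 and Cd72 are highest in syngeneic libraries, Ighd is highest in naive libraries (5.24 CPM), and Igkc is highest in allogeneic libraries (277 to 487 CPM).

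Of 10 further genes of the early B program measured, 6 were higher and 1 lower in syngeneic than in naive libraries, and 1 was higher and 6 lower in allogeneic than in syngeneic libraries. Of all genes 22.4% were higher and 19.5% lower in the first of these comparisons, and 24.3% higher and 20.7% lower in the second. In allogeneic against naive libraries 5 were higher and 2 lower, beside 31.8% and 25.9% of all genes. Sox4 was the gene that fell in syngeneic libraries, from 32.9 CPM in the naive to 7.23 CPM. Akap12 was the gene higher in allogeneic libraries, at 19.4 CPM against 13.5 CPM in the syngeneic ones. Cd24a, a surface protein of B-cell precursors that erythroid and myeloid cells also carry, stood at 1.90 ± 0.216 CPM in the naive, 293 ± 168.5 CPM in the syngeneic and 21.1 ± 11.4 CPM in the allogeneic libraries (-3.72 ± 0.50, edgeR adjusted p = 0.000131, and -4.32 without allogeneic library 1). Flt3, a growth factor receptor of lymphoid progenitors and dendritic cells, stood at 0.250 ± 0.0763, 4.66 ± 2.49 and 0.635 ± 0.592 CPM (-2.79 ± 0.66 between the transplant groups, edgeR adjusted p = 0.00516, and -4.01 without allogeneic library 1). The plasmacytoid dendritic cell gene Siglech stood at 0.0723 to 0.132 CPM in the naive, 0.614 to 1.90 CPM in the syngeneic and 0.0763 to 0.130 CPM in the allogeneic libraries. Of the 5 genes of that cell's list 3 were tested, with 2 higher and 1 lower in syngeneic than in naive libraries and 1 higher and 2 lower in allogeneic than in syngeneic libraries. The one that went the other way was Ccr9, a chemokine receptor gene that T cells also make, at 49.1 ± 4.63, 12.0 ± 1.98 and 60.3 ± 21.6 CPM in the naive, syngeneic and allogeneic libraries.

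Dntt, which encodes the terminal transferase that adds bases at V(D)J joints, did not follow Rag1. It stood at 6.07, 6.71 and 7.45 CPM in the naive, 3.78, 5.29 and 5.12 CPM in the syngeneic and 0.0848, 0.0679 and 0.125 CPM in the allogeneic libraries. Allogeneic libraries were lower than naive (-6.17 ± 0.26, edgeR adjusted p = 6.46e-09) and than syngeneic libraries (-5.69 ± 0.25, 4.59e-08), and syngeneic against naive libraries gave -0.48 ± 0.19 (0.0586). Naive libraries thus held the highest Dntt level beside 2 counts of Rag1. Of the 10 genes of V(D)J joining, 2 were higher and 3 lower in allogeneic against syngeneic libraries, beside 24.3% and 20.7% of all genes. The higher ones were Hmgb1 and Hmgb2, chromatin proteins that dividing cells make, and the lower ones Dntt and the end-joining genes Prkdc and Xrcc6. The call of Hmgb1 was lost without any 1 of the syngeneic libraries (edgeR adjusted p = 0.0518 to 0.079) or allogeneic library 1 (0.093). That of Xrcc6 was lost without naive library 1 (0.0527), any 1 of the syngeneic libraries (0.0564 to 0.0716) or allogeneic library 2 (0.1225), and without the filter (0.0548). Ptcra, the pre-T-cell receptor alpha chain of thymocytes, stood at 0.623 ± 0.0569, 0.473 ± 0.145 and 0.292 ± 0.0771 CPM in the naive, syngeneic and allogeneic libraries, without a rise in syngeneic libraries (-0.36 ± 0.30, edgeR adjusted p = 0.381).

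Of 9 genes that signal downstream of the B-cell receptor and its precursor form, 6 were higher and 1 lower in syngeneic than in naive libraries, and 6 were higher and none lower in allogeneic than in naive libraries. Between the transplant groups 4 were higher in allogeneic libraries, Syk, Pik3ap1, Dapp1 and Prkcb, and none lower. The shares of all genes called in these comparisons were 41.9%, 57.7% and 45%. Syk, the kinase recruited by Cd79a and Cd79b and shared with myeloid cells, stood at 0.747 ± 0.171, 18.7 ± 9.81 and 42.6 ± 17.2 CPM in the naive, syngeneic and allogeneic libraries (1.21 ± 0.36 between the transplant groups, edgeR adjusted p = 0.0181), a call lost without allogeneic library 3 (0.0981). The 7 transcription factors of the B lineage that T cells also make split in direction, with 3 higher and 3 lower in syngeneic than in naive libraries, 3 and 2 in allogeneic than in naive and 3 and 2 in allogeneic than in syngeneic libraries. Chosen from them after the values were seen, Foxo1, an activator of the Rag genes in B-cell precursors, stood at 473 ± 25.2, 262 ± 27.8 and 131 ± 19.1 CPM, a fall in both transplant groups and further in the allogeneic one (-1.00 ± 0.11, edgeR adjusted p = 3.98e-05).

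Among pairs that include Vpreb1, Igll1, Cd79a or Rag1, the members whose levels ran most alike over the 9 libraries were Igll1 and Rag1, with a Pearson r of 0.97 in log2 (CPM + 0.1). Rag1 was also the gene nearest to Igll1 among the genes that passed the filter. Igll1 itself did not pass it. Among the genes that did, those nearest to Rag1 were Tlr5, Hbq1a, Apol11a, Vegfd and P2ry6 (r of 0.96 to 0.97, a range that also holds Igll1), each at a mean of at most 0.00482 CPM in the naive, 0.309 to 2.11 CPM in the syngeneic and at most 0.033 CPM in the allogeneic libraries. Nearest to Igll1 after Rag1 were Vegfb, Gm22270, Tlr5 and Fblim1 (0.95 to 0.96). Nearest to Cd79a among genes that passed the filter were Reep6, Batf3, Gm16236, Grk3 and Siglecg (0.97 to 0.98). Its likeness to Vpreb3, which did not pass it, was 0.97 and lay within that range, and its likeness to Ebf1 was 0.95 and to Cd79b -0.13. Nearest to Vpreb1 were Gm23564, Nfatc2ip, Btbd3, Fdps and Mylpf (0.90 to 0.98), and its likeness to Igll1 was 0.77. These values describe 9 libraries that share groups and depth, and low counts limit them. For Rag1 and Igll1, at or near 0 in the naive and allogeneic libraries, the likeness largely restates the difference between the groups.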

How the data were processed

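RNA sequencing libraries of sorted splenic T cells from 9 naive, syngeneic and allogeneic samples were compared, 3 per group, grouped by their titles. The authors deposited raw read counts per Ensembl gene. HTSeq 0.6.1, TopHat2 2.0.13, FastQC 0.11.3, Bowtie2 2.2.1 and the build GRCm38 are named, per the submitters' processing notes. Libraries were stranded, made from 100 ng of RNA with ribosomal depletion, per the labels' protocols. The sources used here do not give the annotation release or the strand setting, so that overlapping and antisense genes may share reads.

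Symbols matched 29014 of 29229 identifiers, and positions and exon lengths came from GENCODE M21. CPM used column totals. Tests used edgeR 4.0.16 (filterByExpr with a minimum count of 10, TMM, glmQLFit, glmQLFTest), with limma 3.58.1 and DESeq2 1.42.0 as alternatives, beside other scalings, no filter, a replicate block, fits of the compared groups only and leaving out each library. The SE is the log2 fold change divided by the square root of F. The model was tested on simulated data. Replicates differed by more than sampling noise (chi-square divided by its degrees of freedom, 22.5 to 362). A floor of 3 counts per group and 95% exact intervals cover counting error only. Named genes were the 9 members, the mature, pan-B and early B lists, and genes of other lists by level, direction or likeness. Foxo1, Syk, Ighg2c, Jchain and Ptcra, the called genes listed by name in counts, and the overlapping genes were named after their values were seen. One listed gene, with the alternative that used it, is not reported here. Members and lists were chosen with earlier results of these data known.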

Additional observations from a re-analysis of the deposited data

How the results depend on the processing

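The count of members called was 4 in the syngeneic against naive, 3 in the allogeneic against naive and 3 in the allogeneic against syngeneic libraries, and the counts of all genes called, 8213, 11315 and 8832, stayed within 1.5 times under each alternative. In syngeneic against naive libraries no other setting moved the count of members by over 1.5 times, and leaving out 1 library gave 4 to 7. In allogeneic against naive libraries it was 1 with column totals only and 1 with limma-voom, and 1 to 3 leaving out 1 library. In allogeneic against syngeneic libraries it was 5 without the filter, which tested 9 members, and 2 to 7 leaving out 1 library. In all 3 comparisons, Igll1 and Vpreb3 passed the filter in the fits without syngeneic library 1 or without any 1 naive or allogeneic library. Those fits tested 9 members in place of 7, so that the ranges mix a larger set with the effect of single libraries.

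The titles number the libraries, but same-numbered libraries deviated from their group means with correlations of -0.12 to 0.26, so that the numbers were not taken to pair them. With the replicate block the counts of members were 4, 2 and 3 and those of all genes 8034, 11226 and 8669.

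Reversed signs were found only for values that were not called. For allogeneic against naive libraries Rag2 was 0.0022 with DESeq2 size factors, 0.056 with the replicate block, 0.85 with limma-voom and -0.53 to 2.24 leaving out 1 library. Leaving out 1 library gave -0.050 to 0.86 for Vpreb1 and -0.061 to 0.26 for Cd79b in syngeneic against naive, and -0.060 to 0.20 for Cd79b in allogeneic against syngeneic libraries. Over all members 367 of the alternative values kept their direction and side of the threshold. Of the others, 22 lost a call, 6 gained one and 13 reversed their sign.

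The log2 progenitor to mature ratio with Cd22 alone as the mature gene was -4.57 in the naive, -6.395 in the syngeneic and -7.53 in the allogeneic libraries. With Fcer2a it was 0.33, 2.41 and 0.11 in the naive, syngeneic and allogeneic libraries. With Vpreb1 and Igll1 alone it was -6.83, -8.05 and -8.63 in the naive, syngeneic and allogeneic libraries, with the naive value highest. Without Cd22, chosen after seeing the data, it was -5.92, -4.42 and -6.62 in the same order, with the syngeneic value highest. The order of the groups thus depended on the genes chosen. Members at a few counts per library are limited by depth, and the causes of these shifts were not tested.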
